A study of Mus musculus with 9 samples.

Results

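The 10 clock genes described here were followed through mouse liver on a diet lacking methionine and choline, with and without the plant steroid sarsasapogenin. They were 10 of the 16521 gene identifiers in the deposited tables, chosen by name: Arntl, Clock and Npas2, which are highest around the morning in mouse liver, and Nr1d1, Nr1d2, Dbp, Tef, Per1, Per2 and Per3, which are highest later, towards the evening. Total RNA from the livers of C57BL/6 mice was sequenced in 3 groups of 3 samples. The normal group is titled wild type in the labels and received saline. The model group was fed the methionine- and choline-deficient (MCD) diet, which is used to bring on fatty liver disease. The SAR group had the same diet and the high dose of sarsasapogenin, an amount the labels do not state. Whether the samples of a group are separate mice is not said in the labels, and the p-values below measure the spread between samples, which may be technical. The labels used here do not give the animals' age and sex, the lighting schedule or the hour at which the livers were taken.

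The clock is a loop of transcription factors that turns once a day. ARNTL (also called BMAL1) pairs with CLOCK or NPAS2 and switches on genes with E-boxes, among them the Per and Cry genes, Nr1d1, Nr1d2, Dbp and Tef. PER and CRY proteins then block that pair, while the nuclear receptors encoded by Nr1d1 and Nr1d2 (REV-ERB alpha and beta) silence Arntl, Clock and Npas2 through ROR elements. DBP, TEF and HLF act on D-boxes and pass the rhythm on to liver metabolism, and NFIL3 works against them at the same sites. In mouse liver the activators and their targets therefore rise and fall in opposite parts of the day.

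These elements were looked for in the RefSeq promoter windows of the members, build GRCm38.p6, which run from 250 bases before to 50 after each start site. An entry was found for 9 of the 10 members, with 14 windows in all; Per2 was not matched. The letters searched on both strands were CACGTG for the E-box, TTANGTAA for the D-box and TGACGTCA for the cAMP response element. For the ROR element only a part, TAGGTCA, was searched, called the ROR motif here. None of these motifs contains another. Of the 32851 promoter windows in the table, 7.15% held the E-box, 2.32% the D-box, 2.61% the ROR motif and 1.79% the cAMP response element. A match was found in 4 members, and a window of each is printed 5′ to 3′ on the gene's strand, with the matches in capitals, to show the elements named above in these genes. The second Arntl start lies at chr7:113207261-113207560 on the plus strand, and its ROR motif covers positions 30 to 36, counted from the start site as 0. The first Tef start lies at chr15:81802423-81802722 on the plus strand, with an E-box at -127 to -122. The first Per1 start lies at chr11:69098699-69098998 on the plus strand, with an E-box at -166 to -161. The Per3 start lies at chr4:151044616-151044915 on the minus strand, with D-boxes at -205 to -198 and at -158 to -151.
Arntl: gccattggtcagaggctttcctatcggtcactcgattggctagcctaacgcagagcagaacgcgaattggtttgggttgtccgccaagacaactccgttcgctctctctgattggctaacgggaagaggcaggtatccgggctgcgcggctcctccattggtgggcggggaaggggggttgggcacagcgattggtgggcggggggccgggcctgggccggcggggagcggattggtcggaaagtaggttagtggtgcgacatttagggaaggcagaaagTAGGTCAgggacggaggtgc
Tef: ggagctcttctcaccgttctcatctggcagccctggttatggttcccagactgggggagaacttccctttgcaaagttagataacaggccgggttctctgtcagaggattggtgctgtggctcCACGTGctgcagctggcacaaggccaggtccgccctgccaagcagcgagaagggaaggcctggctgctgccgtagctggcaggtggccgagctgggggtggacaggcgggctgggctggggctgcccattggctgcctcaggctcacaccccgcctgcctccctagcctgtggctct
Per1: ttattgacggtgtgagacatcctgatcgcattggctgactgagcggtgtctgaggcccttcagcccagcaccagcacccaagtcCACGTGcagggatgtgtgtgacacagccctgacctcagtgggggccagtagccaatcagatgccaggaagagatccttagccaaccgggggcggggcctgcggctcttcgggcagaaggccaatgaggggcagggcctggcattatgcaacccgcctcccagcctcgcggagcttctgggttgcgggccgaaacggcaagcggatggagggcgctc
Per3: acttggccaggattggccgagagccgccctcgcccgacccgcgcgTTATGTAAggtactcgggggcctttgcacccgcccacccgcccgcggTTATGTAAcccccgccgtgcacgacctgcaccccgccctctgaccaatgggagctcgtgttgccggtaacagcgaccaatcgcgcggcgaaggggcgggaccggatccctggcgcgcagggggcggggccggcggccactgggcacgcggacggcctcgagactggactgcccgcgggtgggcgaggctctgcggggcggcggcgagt
A further Tef window, at its second start, held an E-box at -138 to -133. A match is a description of the letters, and none of the 4 motifs was found in the windows of Clock, Npas2, Nr1d1, Nr1d2 and Dbp.

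The deposited tables give group means of normalised reads, from which the whole reads of each library were recovered. Recovery does not say which replicate number a library carries, so libraries are called a, b and c within a group, in falling order of size factor (the depth scaling). The letters link no library to one of another group. Between 5884897 and 9607105 reads per library were recovered, and 16339 genes were recovered in all 9 libraries. Normal library c stood apart: across genes it correlated at 0.932 and 0.922 with normal a and b, which correlated at 0.976 with each other. Its summed neutrophil markers reached 48700.5 normalised reads against 208 and 530 in the other 2 normal libraries, and 5 of 6 recovered male-biased liver genes were lower in it, with a median difference of -4.90 (log2). Model library c also stood apart, with correlations of 0.925 and 0.938 against 0.979 between model a and b, and with all 7 cholangiocyte markers lower. SAR libraries correlated at 0.961 to 0.968, or 0.964 between a and b. Results that rest on libraries c are given with and without them. Of 12 hepatocyte markers 1 was recovered in all 9 libraries. The authors' deposited table lists albumin (Alb) at group means of 842230 in normal and 738902 in model liver, a fold of 0.877. All 12 are lower in model liver there, down to a fold of 0.155 for Cps1. Their DESeq adjusted p is under 0.05 except for Alb and Ttr, beside 23.5% of genes. In SAR against model liver all 12 are higher, by folds of 1.69 (Apoa1) to 4.25 (Serpina1c). All but Cps1 are called in that comparison, beside 16.5% of genes. In bulk liver, fewer cells of a type and less RNA per cell cannot be told apart.

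Values are normalised reads on a scale common to the 9 libraries, which serve to compare libraries for a given gene and not genes with each other. In all 3 groups the 3 morning members were lowest in library c. Of the 7 evening members, 7 were highest in library c in the normal group, 7 in the model group and 6 in the SAR group, the exception being Nr1d1. The 9 members other than Nr1d1 thus had library c at the same extreme in every group. Among the 12205 genes with a mean of at least 10, library c was lowest in all 3 groups for 7.11% and highest in all 3 for 7.22%. Since the pattern was seen in these values, it is a description and was not tested.

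**Figure D1:**
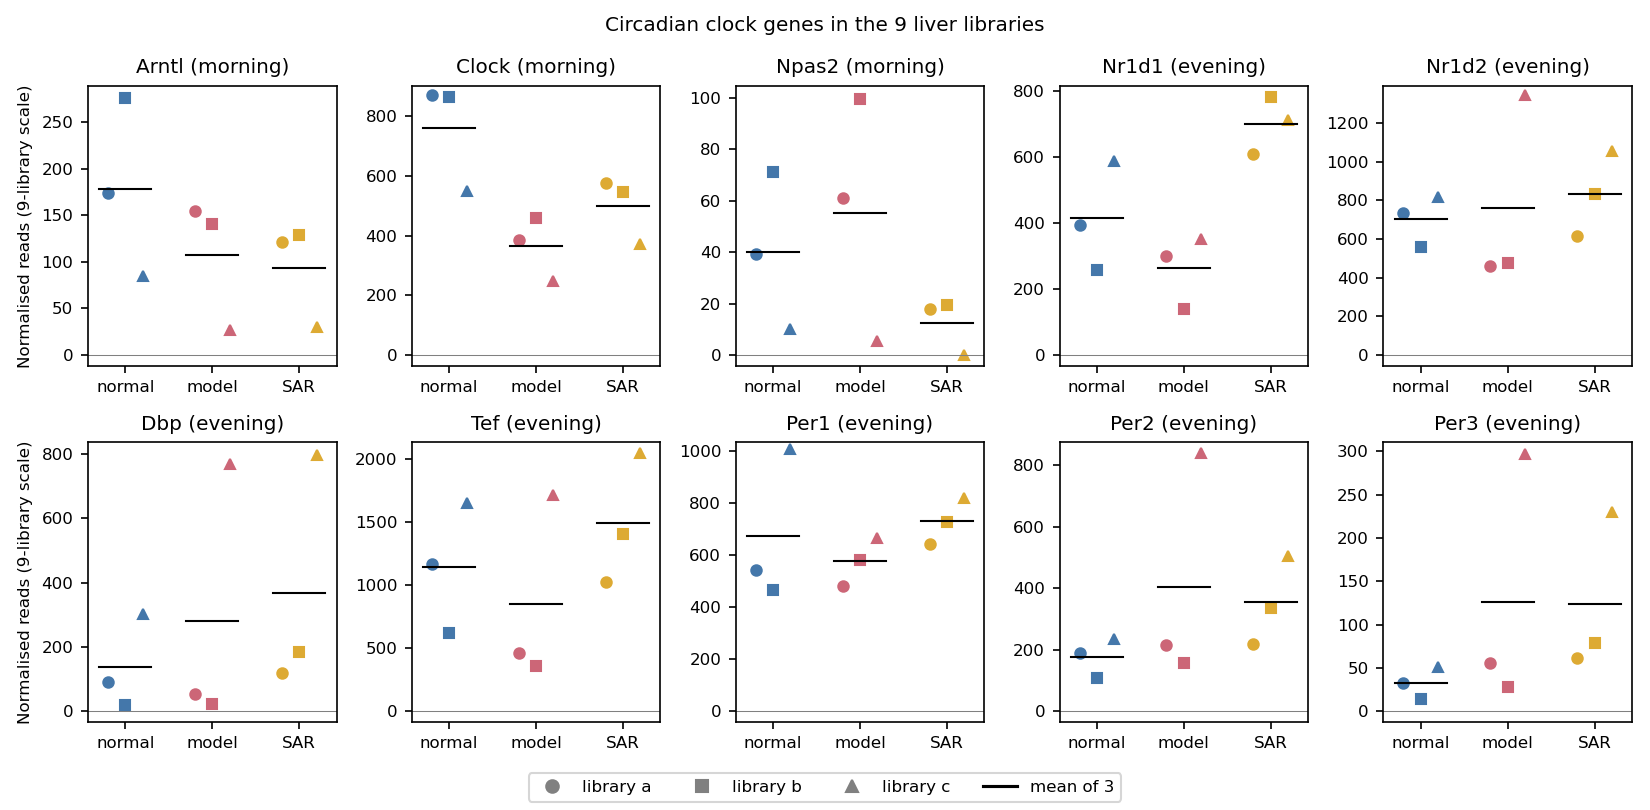
Normalised reads (y axis, 9-library scale, linear, one scale per gene) of the 10 clock genes in the 3 libraries of each group (x axis; circle a, square b, triangle c; bar, mean of 3). The triangles are the lowest points for Arntl, Clock and Npas2 in each group and the highest for the evening genes except Nr1d1 in the SAR group.

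Arntl (ENSMUSG00000055116), the activator with a window that carries the ROR motif above, stood at 174, 277 and 85.0 in normal libraries a, b and c. In model liver it stood at 155, 141 and 27.1, and in SAR liver at 122, 128 and 29.5. Library c was below both others in each group, by 1.36, 2.40 and 2.05 (log2, against the mean of a and b; normal, model, SAR), and the groups overlapped. The SD of Arntl within groups was 1.16 (log2), larger than that of 96.65% of genes, against a median of 0.29 over all genes.

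Clock (ENSMUSG00000029238), the partner of ARNTL, stood at 871, 864 and 549 in normal libraries a, b and c. Model libraries held 386, 459.8 and 248, and SAR libraries 575, 548 and 371. Every model library was below every normal library, and the SAR values overlapped those of both. Within groups it was the steadiest morning member, with an SD of 0.40 (log2) and library c lower by 0.66, 0.76 and 0.60.

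Npas2 (ENSMUSG00000026077), which can stand in for CLOCK, stood at 39.4, 71.3 and 9.94 in normal libraries a, b and c and at 60.9, 99.7 and 5.58 in model libraries. SAR libraries a and b held 17.9 and 19.4, from 15 and 16 reads, and SAR library c had 0 reads, which allows up to 3 reads or 3.85 normalised reads, for counting error only. SAR libraries a and b were below normal and model a and b and above both other libraries c. Its within-group SD of 2.04 (log2) exceeded that of 99.61% of genes.

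Nr1d1 (ENSMUSG00000020889), which encodes the repressor REV-ERB alpha, stood at 394, 258 and 586 in normal libraries a, b and c. Model libraries held 298, 139 and 349.7, and SAR libraries 609, 782 and 710.0. Every SAR library was above every normal and model library, while normal and model overlapped. Here 66.07% of the variance lay between groups, the highest share of the 10 members, against a median of 62.0% over all genes.

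Nr1d2 (ENSMUSG00000021775), which encodes REV-ERB beta, stood at 732, 559 and 818 in normal libraries a, b and c, at 459, 474 and 1348 in model libraries and at 615, 831 and 1054 in SAR libraries. The 3 ranges overlapped, and model libraries held both the lowest and the highest value. Only 6.546% of its variance lay between groups, the lowest share of the 10 members.

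Dbp (ENSMUSG00000059824), the D-box activator, stood at 90.3, 19.5 and 303 in normal libraries a, b and c. Model libraries held 52.3, 22.8 and 768, and SAR libraries 119, 183 and 797. The highest library of a group exceeded the lowest 15.6-fold in normal, 33.6-fold in model and 6.68-fold in SAR liver, and all 3 ranges overlapped. Its within-group SD of 2.06 (log2) exceeded that of 99.63% of genes. Among genes with a mean of at least 50, Dbp had the largest excess in library c that held in all 3 groups, at 2.81, 4.43 and 2.42 (log2), ranked by the smallest of the 3.

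Tef (ENSMUSG00000022389), a D-box activator with E-boxes in its own windows, stood at 1166, 619 and 1653 in normal libraries a, b and c, at 465, 361 and 1716 in model libraries and at 1024, 1406 and 2050.3 in SAR libraries. Model libraries a and b were below all others, and model c was above all normal libraries. The within-group SD was 0.86 (log2), larger than that of 91.93% of genes.

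Per1 (ENSMUSG00000020893), a repressor of the loop that also answers to cAMP and glucocorticoids, stood at 544, 466 and 1007 in normal libraries a, b and c, at 480.4, 581 and 667 in model libraries and at 642, 728 and 820.4 in SAR libraries. Library c exceeded the mean of a and b by 0.999 (log2) in normal liver but by 0.34 and 0.26 in model and SAR liver. With an SD of 0.38 (log2) Per1 was the steadiest of the 10, and the groups overlapped.

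Per2 (ENSMUSG00000055866), the partner of PER1 in repression, stood at 189, 107 and 235 in normal libraries a, b and c, at 217, 156 and 838 in model libraries and at 219.6, 337 and 506 in SAR libraries. Model library c was the highest of all 9. Per3 (ENSMUSG00000028957), the paralog with D-boxes in its window, stood at 32.7, 14.1 and 50.8 in normal libraries, at 55.2, 27.4 and 296 in model libraries and at 60.9, 78.8 and 229.8 in SAR libraries. All SAR values of Per3 were above all normal values, and the model values spanned both. Library c exceeded the mean of a and b for Per3 by 1.20, 2.90 and 1.72 (log2), and its within-group SD was 1.27.

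**Figure D2:**
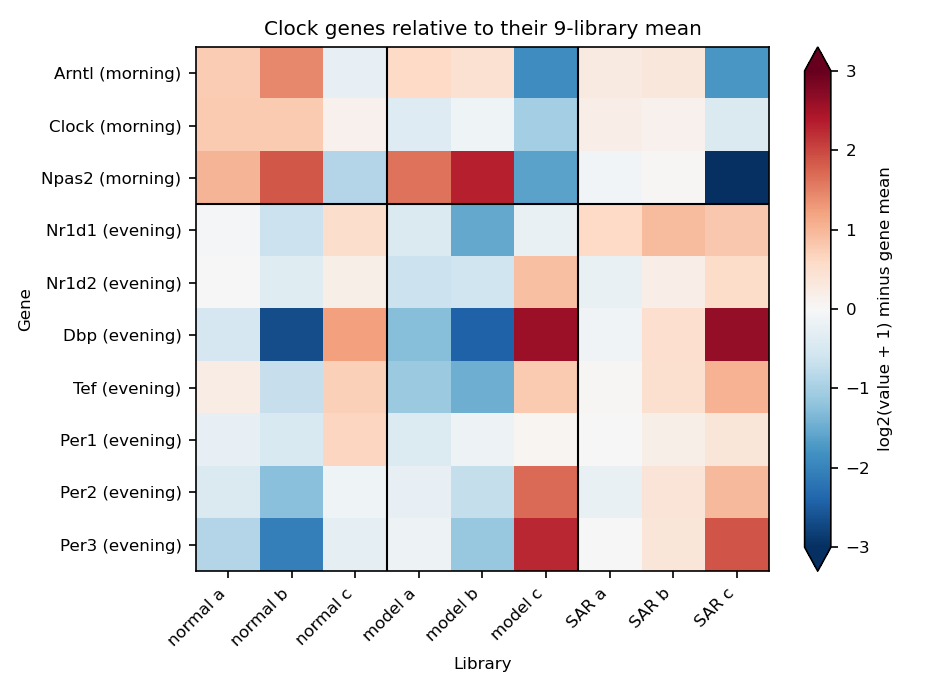
Difference of log2(value + 1) in each library (x axis) from the gene's mean over the 9 libraries (colour scale, red above and blue below the mean) for the 10 members (y axis). The columns of model c and SAR c carry the low values of Arntl and Npas2 beside the high values of Dbp, Per2 and Per3.

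**Figure D3:**
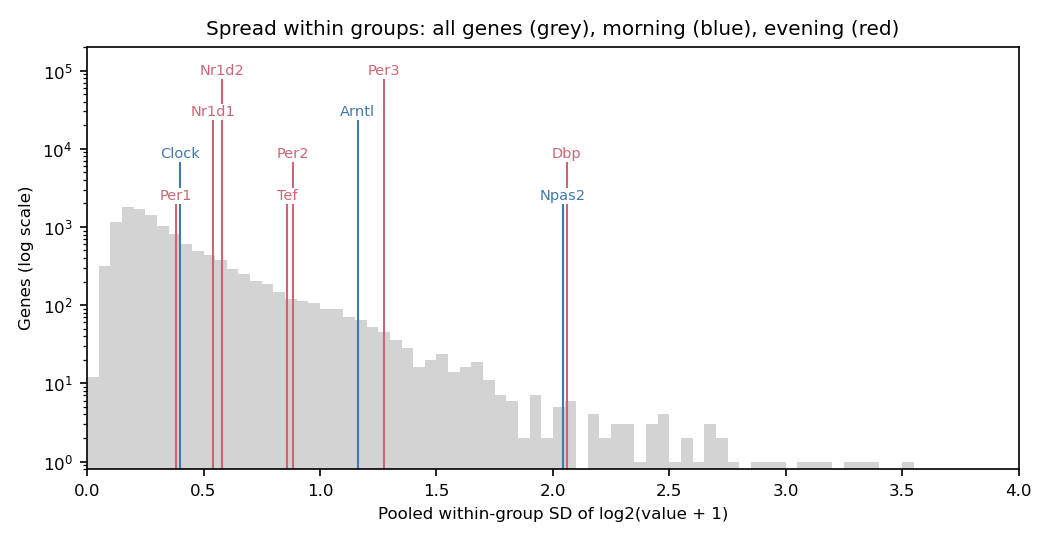
Within-group SD of log2 values for the clock genes set against the distribution over the 12205 genes with a mean of at least 10 (x axis, SD in log2 units; y axis, number of genes on a log scale; lines, blue for morning and red for evening members, with heights set only to separate the names). Dbp at 2.06 and Npas2 at 2.04 lie beyond the 95th percentile of 1.03, as do Per3 and Arntl, while Per1 and Clock lie nearer the median of 0.29.

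The 2 phases were set against each other in each library by the mean log2 value of the 3 morning members minus that of the 7 evening members. The difference was -0.56, 0.83 and -2.44 in normal libraries a, b and c, with a mean of -0.73 ± 1.64 (SD, n = 3). In model libraries it was -0.46, 0.35 and -4.34 (-1.48 ± 2.51, SD, n = 3). In SAR libraries it was -1.57, -1.97 and -5.03 (-2.86 ± 1.90, SD, n = 3). Library c was the lowest of each group, and SAR libraries a and b were below normal and model a and b, while the 3 ranges overlapped. As a score over chosen genes it has no p-value. Without Clock in the morning mean, SAR library c moved to -7.06.

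**Figure D4:**
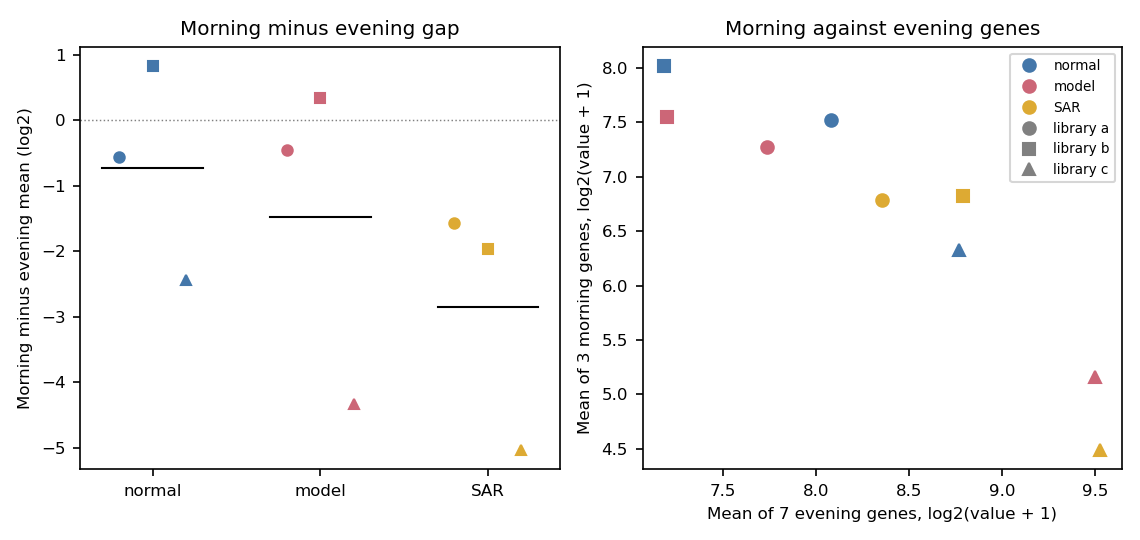
Left, morning minus evening difference (y axis, log2) in each of the 9 libraries by group (x axis; points, libraries; bar, mean of 3); right, the mean log2(value + 1) of the 3 morning genes (y axis) against that of the 7 evening genes (x axis) in the same libraries. The libraries c lie lowest in their groups, at -2.44, -4.34 and -5.03, and normal b and model b are the only libraries above 0.

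The first comparison asked how the MCD diet moved the clock genes. Clock was lower in model liver, by 1.07 on the log2 scale, and it was the only member called among the 10, all of which passed the filter on low values. Its mean was 844 ± 205 in normal and 406 ± 120 in model libraries (SD, n = 3; scale of this comparison), with an SE of 0.27 and an adjusted p of 0.0188 by limma on log2(value + 1). Of the 12474 genes tested, 39.1% were called, 20.2% as higher and 18.9% as lower, so the share of members called, 1 of 10, is no larger than that of genes at large. Clock was also the only member whose groups did not overlap, against 53.8% of genes. The authors' deposited table gives Clock a fold of 0.480 and an adjusted p of 0.00752, where 23.5% of its genes are called. The call was lost without normal a, normal b or model a, with limma adjusted p of 0.0692, 0.0623 and 0.0530, at differences of -0.96, -0.96 and -1.14 (log2).

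The other 9 members were not called in that comparison. Per3 differed by 1.40 ± 0.85 (log2, SE), Per2 by 0.86 ± 0.60, Arntl by -0.91 ± 0.70, Tef by -0.68 ± 0.59 and Nr1d1 by -0.67 ± 0.40, with limma adjusted p between 0.212 and 0.388. Dbp, Npas2, Per1 and Nr1d2 differed by 0.27, 0.12, -0.15 and -0.06, with SEs of 1.37, 1.09, 0.29 and 0.40. The median over all genes was 0.03. Leaving out library c of both groups leaves 2 against 2 and was a setting chosen after seeing the data. The members lay at their extremes in those libraries, which widens their spread, so calls without them are a description only. Called lower were then Arntl at -0.57 (limma adjusted p = 0.0429), Nr1d2 at -0.45 (0.0220) and Tef at -1.05 (0.00222), beside Clock at -1.04. With those libraries left out, 27.7% of all genes were called lower. Without model library c alone, Clock, Nr1d2 and Tef were called lower, beside 23.1% of genes.

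Comparing SAR with model liver asked what the compound did on the diet. Nr1d1 was higher in SAR liver by 1.52 ± 0.31 (log2, SE; limma adjusted p = 0.00825), from 267 ± 111 to 722 ± 91.0 (SD, n = 3; scale of this comparison). It was the only member called, 1 of 10 beside 29.3% of the 12462 genes tested, 13.2% as higher and 16.2% as lower. It was also the only member whose groups did not overlap, against 45.3% of genes. Leaving out each of the 6 libraries in turn kept the call, with limma adjusted p from 0.000847 to 0.0422. The authors' deposited table gives Nr1d1 a fold of 2.70 and an adjusted p of 3.10e-06, where 16.5% of its genes are called.

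Among the uncalled members, Tef differed between SAR and model liver by 1.13 ± 0.52 (log2, SE), Dbp by 1.41 ± 1.16, Per1 by 0.36 ± 0.17, Clock by 0.48 ± 0.26 and Npas2 by -2.24 ± 1.33, with limma adjusted p between 0.127 and 0.38. Per3, Nr1d2, Per2 and Arntl differed by 0.44, 0.31, 0.15 and -0.10, with SEs of 0.80, 0.39, 0.56 and 0.73, and the median over all genes was 0.01. These values moved with single libraries, in both directions. Without SAR library c, Npas2 stood at -0.80 and Dbp at 0.60, and Arntl (0.58), Per2 (-0.15) and Per3 (-0.14) changed sign. Without model library b, Dbp stood at 0.38 and Npas2 at -1.47, and Arntl (0.27), Per2 (-0.33) and Per3 (-0.29) changed sign; with either left out Nr1d1 was the only member called. Without model library c, 6 evening members were called higher in SAR liver: Nr1d1 at 1.78, Nr1d2 at 0.81, Dbp at 2.88, Tef at 1.82, Per1 at 0.47 and Per2 at 0.87 (limma adjusted p from 5.48e-04 to 0.0474). Npas2 was then called lower, at -3.45 (0.0327), and 20.4% of all genes were called higher and 21.0% lower. Without library c of both groups, Nr1d1, Nr1d2, Dbp and Tef were called higher, at 1.76, 0.63, 2.07 and 1.56. Npas2 was called lower, at -1.999, and the shares of all genes were 16.2% higher and 19.7% lower. That setting was chosen after seeing the data, so its calls are a description only. The members lay at their group extremes in model library c, so the calls without it alone are likewise a description.

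Markers of other liver cells were followed as well. On the diet 8 of 10 macrophage markers were called higher and 1 lower. Also higher were 6 of 6 tested cholangiocyte, 6 of 8 stellate cell and fibroblast and 6 of 7 T and NK cell markers. Of 10 neutrophil markers 1 was called higher. The medians of these 5 lists were, in that order, 3.11, 2.91, 2.35, 2.23 and 1.65 (log2). Of all genes 20.2% were called higher and 18.9% lower, so the neutrophil count was no larger than that share. Normal library c held 48700.5 in summed neutrophil markers, above the 9987 to 13854 of the model libraries. In SAR against model liver the same 5 lists had 9 of 10, 4 of 6, 7 of 8, 3 of 7 and 8 of 10 called lower. Their medians were -1.92, -2.52, -1.96, -1.59 and -2.31. Male-biased liver genes had 4 of 6 called lower on the diet (median -4.72) and 8 of 8 higher in SAR against model liver (median 5.88). Of all genes in SAR against model liver, 13.2% were called higher and 16.2% lower. Summed over the recovered genes, the macrophage markers ran over 3954 to 4458 in normal, 16679 to 18163 in model and 4849 to 6625 in SAR libraries. The male-biased genes ran over 10838 to 33234, 1907 to 2351 and 20333 to 29370. In SAR against normal liver 6 of 10 macrophage markers were called higher and 1 lower, beside 1.74% and 1.81% of all genes. From the other 5 lists 0 were called either way.

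In model library c, the 7 cholangiocyte markers were all below the mean of model a and b, with a median difference of -2.62 (log2). Their summed level ran over 1979 to 10760 in the 3 model libraries. Stellate cell and fibroblast markers were lower in 6 of 8, neutrophil markers higher in 9 of 11 and macrophage markers higher in 5 of 10. In normal library c stellate cell and fibroblast markers were lower in 8 of 8 and cholangiocyte markers in 3 of 7. Neutrophil markers were higher there in 11 of 11 and macrophage markers in 6 of 10. For SAR library c the counts were 8 of 8 and 6 of 7 lower, and 8 of 11 and 9 of 10 higher. The stellate and neutrophil sums ran over 9952 to 25342 and 9987 to 13854 in the model libraries, and no marker of these lists was at 0 throughout a group. The part of these markers in the clock differences, between groups or within them, was not tested.

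SAR and normal liver were compared to see what remained apart from normal. No member was called by limma, where 3.54% of 11520 genes were (1.74% higher, 1.81% lower), and limma with voom weights called 0 as well. An unadjusted p under 0.05 was reached by 4 of the 10, and by 26.2% of genes. These were Per3 at 1.81 ± 0.58 (log2, SE; limma adjusted p = 0.104), Nr1d1 at 0.83 ± 0.27 (0.107), Per2 at 0.99 ± 0.36 (0.132) and Clock at -0.61 ± 0.23 (0.15). For Nr1d1 and Per3 every SAR library was above every normal one; 33.2% of genes had groups that did not overlap, 15.9% with SAR above. Arntl, Npas2, Dbp, Tef, Nr1d2 and Per1 differed by -1.03, -2.06, 1.65, 0.43, 0.23 and 0.20, with limma adjusted p between 0.297 and 0.676. Without normal library c, the library with the outlying neutrophil sum, Nr1d1 at 1.12 (0.0141) and Per3 at 2.21 (0.0383) were called higher and Clock at -0.82 (0.0326) lower, beside 4.69% and 4.66% of genes. All 10 members also lay at their group extreme in normal library c, so the calls without it are a description only. Without library c of both groups, Nr1d1 was called higher at 1.11 and Clock lower at -0.63, beside 4.14% and 4.62% of genes. Being chosen after seeing the data, that setting gives a description only. The comparisons share samples, so their values are given side by side and not set against each other.

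**Figure D5:**
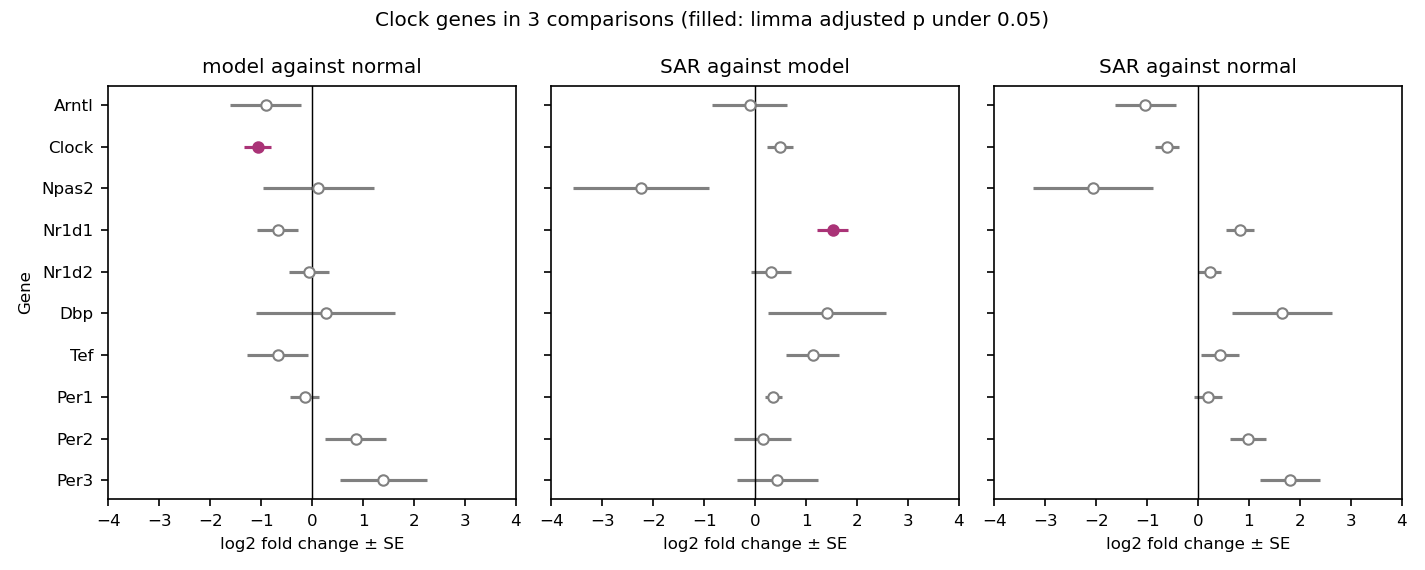
Log2 fold changes (x axis; bars, SE) of the 10 clock genes (y axis) in the 3 comparisons, with filled points for limma adjusted p under 0.05. Clock at -1.07 in model against normal and Nr1d1 at 1.52 in SAR against model are the filled points, and the widest SEs belong to Dbp and Npas2.

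Of the other core clock genes, 9 of 10 were tested; Rorb was at 1 read. Hlf (ENSMUSG00000003949), the third D-box activator, stood at 779, 621 and 814 in normal libraries a, b and c, at 91.8, 119.5 and 398 in model libraries and at 514, 711 and 899 in SAR libraries. All model libraries were below all normal and SAR libraries. It fell by 2.15 ± 0.49 (log2, SE; limma adjusted p = 0.0128) on the diet and was higher by 2.09 ± 0.48 (0.0133) in SAR than in model liver. Nfil3, the repressor at the same sites, moved the same way: it stood at 444, 458 and 429.6 in normal, 222, 327 and 204 in model and 479.9, 516 and 326 in SAR libraries. Its fall was 0.85 ± 0.19 (limma adjusted p = 0.0125), and its rise 0.83 ± 0.24 (0.0307). With these, limma called 0 higher and 2 lower on the diet, beside 20.2% and 18.9% of all genes, with a list median of -0.49 against 0.03. In SAR against model liver 2 were higher and 1 lower, beside 13.2% and 16.2% of all genes, with a median of 0.50 against 0.01.

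Bhlhe41, a repressor at E-boxes, was the gene lower in SAR than in model liver, by 1.65 ± 0.50 (log2, SE, limma adjusted p = 0.0362). It stood at 76.7, 44.2 and 58.1 in model and 14.3, 9.69 and 38.5 in SAR libraries. On the diet it differed by 1.46 ± 0.56 (limma adjusted p = 0.0713) and was not called by limma. The authors' deposited table gives it a fold of 2.40 on the diet and a DESeq adjusted p of 0.0420, where 23.5% of genes are called. Ciart, a repressor of the CLOCK and ARNTL pair, had the widest spread of this list, with 91.3, 62.7 and 508 in normal, 16.5, 17.5 and 195 in model and 100.3, 223 and 439 in SAR libraries. Library c was the highest of each group for Ciart, Hlf and Bhlhe40 and the lowest for Cry1, Rora and Nfil3. The repressor Cry1 differed by -0.07 between model and normal liver and by 0.50 between SAR and model liver, and Cry2 by -0.94 and 0.59. The activating receptor gene Rora, whose product opposes REV-ERB, differed by -0.49 on the diet and by 0.37 in SAR against model liver, and Bhlhe40 by 0.26 and 0.33. None of these 4, nor Ciart at -1.85 and 2.45, was called. Against normal liver, 0 of the 9 were called in SAR liver, with a median of -0.04.

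Of 25 kinases, ligases and cofactors that act on clock proteins, 2 rose and 4 fell on the diet, beside 20.2% and 18.9% of all genes, with a median of -0.13. Csnk1e, a casein kinase that marks PER proteins for decay, rose by 2.07 ± 0.29 (log2, SE; limma adjusted p = 0.00271). Prkaa2, a catalytic subunit of AMPK, which marks CRY1, fell by 1.19 ± 0.20 (0.00490), and Fbxl17, Csnk2a1 and Fbxw11 fell by 1.33, 0.74 and 0.63. Between SAR and model liver 2 were higher and 2 lower in SAR liver, beside 13.2% and 16.2% of all genes, with a median of 0.08. Csnk1e was lower by 1.34 ± 0.19 and Timeless by 1.17 ± 0.25, while Prkaa2 was higher by 0.79 and Btrc, a ubiquitin ligase subunit for PER proteins, by 0.67. Between SAR and normal liver 0 of the 25 were called, with a median of -0.04.

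Liver genes known to follow the clock formed a list of 30 outputs, of which 27 could be tested on the diet. There 2 rose, 8 fell and 17 were not called, beside 20.2% and 18.9% of all genes, with a list median of -0.91 against 0.03. Lpin1, a phosphatidate phosphatase of fat synthesis, fell by 2.61 ± 0.22 (log2, SE; limma adjusted p = 0.000747), from 6934 ± 257 to 1162 ± 318 (SD, n = 3). Cyp7a1, which opens the classical route from cholesterol to bile acids, fell by 2.33 ± 0.46 (0.00830). The carboxylesterase Ces2a fell by 3.36, and the vasopressin receptor Avpr1a fell by 2.10. In SAR against model liver 9 of 28 were higher, 1 was lower and 18 were not called, beside 13.2% and 16.2% of all genes, with a median of 0.87 against 0.01. Whether the list differs from other genes was not tested. Elovl3, a fatty acid elongase, was higher by 5.97 ± 0.55 (0.000443), Ces2a by 4.06, the uridine phosphorylase Upp2 by 2.43 and the nuclear receptor Nr1i3 by 2.16. Elovl3 is also on the list of male-biased liver genes. Against normal liver 2 of 27 were higher in SAR liver, beside 1.74% of all genes, with a median of 0.02, among them Rgs16 at 2.21 ± 0.37 (0.0314). Cyp2a4, called in all 3 comparisons, averaged 0.399 normalised reads in normal and 788 ± 884 in model libraries; its near-identical copy Cyp2a5 may share reads with it, so its value is uncertain.

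The genes whose pattern over the 9 libraries was most like that of Arntl and Dbp were ranked by Pearson correlation of log2 values among 9752 genes with a mean of at least 50, the 10 members left out. For Arntl these were Mical2 at 0.956, Lgalsl at 0.947, the cell cycle inhibitor Cdkn1a at 0.947, Syne1 at 0.931, Dyrk1b at 0.925, Chd4 at 0.914, Ube2o at 0.911 and Rest at 0.907. For Dbp they were Paox at 0.917, the deubiquitinase Usp2 at 0.912, Cyp2a5 at 0.911, Slc9a3r1 at 0.902, Bhlhe40 at 0.899, Ngef at 0.897, Baz1b at 0.893 and Anpep at 0.888. Correlations above 0.9 were reached by 0.0923% of these genes with Arntl and by 0.041% with Dbp. Among the members left out, Dbp correlated at 0.913 with Nr1d2, 0.910 with Per3, 0.909 with Tef and 0.907 with Per2. Arntl correlated at 0.874 with Npas2 and -0.939 with Per3. The strongest pair of members was Per2 with Per3 at 0.981, and Arntl with Per2 stood at -0.924 and Npas2 with Dbp at -0.920. Some pairs were weak, such as Arntl with Nr1d1 at -0.364 and Clock with Nr1d1 at -0.003. Clock with Tef stood at -0.204, Clock with Npas2 at 0.491 and Per1 with Per2 at 0.509. The 9 points share 3 groups and the contrast of library c with the others, and the coefficients are given as a description.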

How the data were processed

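Liver RNA of 9 samples (3 groups of 3) was sequenced from NEBNext libraries, per the labels' protocols. The authors deposited 2 tables, normal with model and model with SAR, of DESeq results per the labels. Per the file headers these hold a mean signal per group (reads divided by size factors), a fold (a linear ratio of those means), its log2 value, and a p-value with its adjusted form. The submitters' processing notes name the build mm9; the sources used here give no aligner, counter or annotation, and reads shared between near-identical genes may have been split.

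Each group mean, written to 15 digits, was solved for the 3 whole read counts and size factors behind it. This gave 16339 of 16521 genes in all 9 libraries; 182 were left out, mainly those with means over 30000 or with several solutions. All 15982 model genes solved in both tables alone had the same reads, and 0 of 1000 means moved slightly could be solved. The design assumed such library values, and the solver and fits were tested on simulated data.

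Groups were compared with limma 3.58.1 in R 4.3.3 (trended variance, log2(value + 1), mean of at least 10 over the 6 libraries, two-sided, Benjamini-Hochberg over all genes tested, threshold 0.05). With 3 against 3 an exact permutation test could not go below 0.1. SAR and normal stand in different tables and were rescaled from the recovered reads. Fold changes on the log2(value + 1) scale understate those of low genes. Other pseudocounts, filters, scalings, voom weights, a joint fit and left-out libraries were tried. The text names all members, every gene of the core list (except an item that is not reported here), up to 5 called genes per other list with the largest change, and the 8 genes most like Arntl and Dbp. Members and lists were chosen with earlier results of these data known.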

Additional observations from a re-analysis of the deposited data

How the results depend on the processing

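Of the values of single clock genes under other settings, 421 kept direction and side of the threshold, 24 changed sign, 20 came to pass the threshold and 3 no longer did. No paired analysis was possible because the recovered libraries carry no replicate number, so the replicate block was not run. Nr1d2 between model and normal liver turned from -0.06 to 0.030 with upper quartile scaling and to 0.12 in the authors' test. In that test Per2 and Per3 in SAR against model liver were at -0.17 and -0.015. Without library c of both groups, a setting chosen after seeing the data, Dbp (-0.28) and Per1 (0.072) turned between model and normal liver. That setting called 3781 genes higher and 4 clock genes lower in model liver, 4 clock genes higher and 1 lower in SAR against model liver, and 476 genes higher and 532 lower in SAR against normal liver, with 1 clock gene each way. Voom weights called 138 genes lower in SAR than in normal liver. Without Clock the phase difference of SAR library c was -7.06. The cause of these changes was not tested.

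Leaving out each library in turn gave 1260 to 2853 genes higher and 1165 to 2880 lower in model against normal liver, with 0 clock genes higher and 0 to 3 lower. In SAR against model liver it gave 628 to 2539 higher and 916 to 2616 lower, with 1 to 6 clock genes higher and 0 to 1 lower. In SAR against normal liver it gave 4 to 539 higher and 1 to 536 lower, with 0 to 2 clock genes higher and 0 to 1 lower. Between model and normal liver the log2 ranges that crossed 0 were -0.66 to 1.32 for Npas2, -0.57 to 0.21 for Nr1d2, -1.21 to 1.296 for Dbp and -0.37 to 0.18 for Per1. Between SAR and model liver they were -0.91 to 0.58 for Arntl, -0.33 to 0.87 for Per2 and -0.29 to 1.40 for Per3, and between SAR and normal liver -0.026 to 0.53 for Per1. Depth limits Npas2, with 0 to 16 reads per SAR library.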

Other observations

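Genes that answer to hormones acting on the clock were followed as a list. Of 12 tested glucocorticoid and cAMP response genes, 2 were higher and 3 lower in model than in normal liver by limma, beside 20.2% and 18.9% of all genes, with a median of -0.22 (log2). Fkbp5, a glucocorticoid receptor co-chaperone, fell by 1.89 ± 0.31 (SE; limma adjusted p = 0.00415), Klf9 by 1.23 and the receptor gene Nr3c1 by 0.47, while Fos rose by 1.89 and the kinase gene Sik1 by 1.12. In SAR against model liver 5 of 13 were higher and 2 lower, beside 13.2% and 16.2% of all genes, with a median of 0.05. Tsc22d3 was higher by 1.53 ± 0.29 (0.00637), Fkbp5 by 1.23 and Errfi1 by 1.14, and Sik1 fell by 2.21 ± 0.17 (0.000189) and Sgk1 by 1.23. In SAR against normal liver 1 of 12 was higher, Fos at 1.71, and 2 were lower, Sik1 at -1.11 and Sgk1 at -0.87, beside 1.74% and 1.81% of all genes, with a median of -0.37. Of 10 tested heat shock genes, 1 was called on the diet, Hsf1 at 0.61, beside 39.1% of all genes, with a median of -0.09. In SAR against model liver 3 were higher and 0 lower, beside 13.2% and 16.2% of all genes, with a median of 0.28: Hspa1b by 1.73, Hsph1 by 1.27 and Dnajb1 by 0.84. Against normal liver 0 were called, with a median of 0.22.

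Genes that had library c as highest or lowest in all 3 groups were ranked after their values were seen, by the smallest of the 3 differences. Dbp led the genes that were higher, followed by the neutrophil gene Retnlg (5.12, 1.87 and 1.80, log2, in normal, model and SAR liver), the macrophage receptor Marco (2.53, 2.67 and 1.79), S100a8 (6.44, 1.59 and 1.95) and Ciart (2.73, 3.45 and 1.55). Near the top of the genes that were lower stood Fbn1 (-2.78, -1.997 and -1.48), Dtx4 (-1.49, -1.42 and -1.45) and, next after them, Arntl.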
